A study of Mus musculus with 6 samples.

Results

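The replication-dependent histone genes were taken as all gene symbols that begin with *Hist1h*, *Hist2h*, *Hist3h* or *Hist4h*, which gave 68 of the 23420 symbols in the count files. They comprised 6 H1, 18 H2A, 19 H2B, 12 H3 and 13 H4 genes, one of them the pseudogene *Hist3h2bb-ps*. Of these, 54 belonged to the *Hist1* cluster on chromosome 13, 10 to *Hist2* on chromosome 3, 3 to *Hist3* on chromosome 11 and 1 was *Hist4h4* on chromosome 6. RNA-seq compared mouse E14 embryonic stem cells (ESCs), a line derived from the early embryo and grown here under LIF and 2i (MEK and GSK3 inhibitors), between WT cells and a *Patz1* KO (*Patz1* -/-). PATZ1 is a zinc finger protein that binds DNA, and the KO was made with CRISPR/Cas9 through single clones, but the labels do not say which clone or how many gave these libraries. Each genotype had 3 libraries of total RNA depleted of ribosomal RNA, so transcripts without a poly(A) tail were retained. The study calls them biological replicates, a term its culture methods define by independent differentiations, and how that applies to undifferentiated ESCs is not said.

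Replication-dependent histone genes supply the core histones H2A, H2B, H3 and H4 and the linker histone H1 that package newly copied DNA in S phase. Their mRNAs have no introns as a rule and end not in a poly(A) tail but in a short stem-loop, which is bound by SLBP and processed with the U7 snRNP. A few members, among them *Hist1h1t* (the testis linker histone H1t), *Hist1h2aa* (TH2A) and *Hist1h2ba* (TH2B), are best known from male germ cells.

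The stem-loop is shown because it is the feature that sets these transcripts apart from other mRNAs. A match to its 16-base pattern lay 21 to 58 bases after the stop codon in 46 of the 68 members (median 31 bases, GENCODE M21 transcripts on GRCm38, the same build as mm10). Of the 22 members without a match, 18 had fewer than 50 annotated bases after the stop codon, *Hist1h2aa* and *Hist1h2ba* among them. There were 8 distinct sequences, of which one was carried by 26 members. The stems are in capitals and the 4 loop bases in lower case.
Hist1h1c stem-loop: GGCTCTtttcAGAGCC
Hist1h1t stem-loop: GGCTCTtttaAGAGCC
Hist1h4c stem-loop: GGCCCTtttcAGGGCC
The *Hist1h1c* form was the one shared by 26 members, and the *Hist1h1t* form was found in 6 members. The *Hist1h4c* form, with a different stem, was found in 7 members. By this feature *Hist1h1t* was an ordinary member, with its stem-loop 29 bases after the stop codon.

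Promoters of 3 members are shown because these members contrast in their difference between the genotypes. They are *Hist1h1t*, the nearest other H1 gene, *Hist1h1c*, and *Hist1h2aa*, whose promoter lies in the 305 bases between it and the divergent gene *Hist1h2ba*. Each is the 250 bases before the RefSeq start on the strand of the gene (build GRCm38.p6), namely chr13:23695561-23695810 (plus strand), chr13:23738557-23738806 (plus strand) and chr13:23934187-23934436 (plus strand). Capitals mark matches on either strand to 4 motifs. These are the TATA box form TATAAA, the box known as CCAAT, the run AAACACA known from H1 promoters, and the G-rich run GGGGNGGGG. In these 3 sequences no match to one motif overlaps a match to another.
Hist1h1t promoter: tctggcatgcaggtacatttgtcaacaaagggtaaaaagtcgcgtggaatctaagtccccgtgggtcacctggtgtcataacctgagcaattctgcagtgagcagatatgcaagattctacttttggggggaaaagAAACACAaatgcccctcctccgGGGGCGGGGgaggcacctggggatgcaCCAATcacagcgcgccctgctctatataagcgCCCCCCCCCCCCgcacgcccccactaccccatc
Hist1h1c promoter: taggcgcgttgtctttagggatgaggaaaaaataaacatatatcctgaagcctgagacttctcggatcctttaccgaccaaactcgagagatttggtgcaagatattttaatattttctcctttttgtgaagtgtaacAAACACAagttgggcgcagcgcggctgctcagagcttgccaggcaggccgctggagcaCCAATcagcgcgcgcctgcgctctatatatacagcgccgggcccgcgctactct
Hist1h2aa promoter: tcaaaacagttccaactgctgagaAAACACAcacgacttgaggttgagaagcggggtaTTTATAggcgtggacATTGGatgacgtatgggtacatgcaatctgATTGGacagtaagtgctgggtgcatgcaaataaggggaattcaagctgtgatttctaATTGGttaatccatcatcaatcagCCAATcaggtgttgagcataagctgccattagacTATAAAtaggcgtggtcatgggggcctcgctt
Over windows from 250 bases before to 50 bases after the start, 62 members were matched to RefSeq with 63 promoters. TATAAA was found in 55.6% of the members' promoters and 13.6% of all 32851 promoters. CCAAT was found in 85.7% and 37.4%, AAACACA in 14.3% and 7.18%, and GGGGNGGGG in 14.3% and 22.4%. All 6 H1 promoters held CCAAT, and all but that of *Hist1h1a* held AAACACA. Among the H1 promoters, GGGGNGGGG was matched in that of *Hist1h1t* and in no other. It was not particular to *Hist1h1t*, since that of its closest neighbour *Hist1h4c*, which was not called, also held it. The promoters of *Hist1h2aa* and *Hist1h2ba* did not. These matches describe the letters of the windows and are not evidence of binding.

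Deposited counts summed to between 37573923 and 47721070 in replicates 1 and 2 of each genotype and to 11040756 and 11420268 in WT and KO replicate 3. Replicate 3 also had more counts of the ribosomal RNA precursor *Rn45s*, 14.4% and 12.5% of all counts against 1.79% to 3.03% in the other libraries. Values below are given in the order of replicates 1, 2 and 3. *Patz1* itself had WT levels of 1838, 1983 and 1843 normalized counts and KO levels of 853, 862 and 862 (log2 fold change -1.14, SE 0.10, DESeq2 adjusted p = 1.58e-26), a fall in every KO library. All 10 ESC markers were tested, and their summed level was 168676 to 178203 normalized counts in WT and 190676 to 198291 in KO. One of them, *Dppa5a*, was called higher in KO (log2 fold change 0.38), and with the replicate number as a block 4 were, *Pou5f1*, *Zfp42* and *Tdgf1* being the others. Of the fibroblast markers 1 of 5 tested was called, *Thy1* (log2 fold change 0.83), and of the primitive endoderm markers 1 of 8, *Dab2* (1.33). Of the trophoblast markers 3 of 7 were called, *Tfap2c* higher (0.66) and *Cdx2* (-0.72) and *Krt8* (-0.66) lower, beside 7.49% of all genes tested. With both replicate 3 libraries left out, *Thy1* (DESeq2 adjusted p = 0.0715) and *Cdx2* (0.0971) were not called. The summed level of the trophoblast list was 1898 to 2089 normalized counts in WT and 1800 to 1884 in KO. It was 4244 to 5182 and 4220 to 4943 for the fibroblast list, and 3021 to 3675 and 2874 to 3409 for the primitive endoderm list. The part of any of these in the levels of the histone genes was not tested. In bulk RNA, fewer cells that express a gene cannot be told apart from less of its RNA in each cell.

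Of the 68 members, 60 were tested, and 3 were called in the DESeq2 Wald test fitted on all genes at an adjusted p under 0.05. All 3 were higher in KO, and they were the testis histone genes *Hist1h1t*, *Hist1h2aa* and *Hist1h2ba*. The 3 calls were 5.0% of the members tested, beside 7.49% of the 15309 genes tested in either direction and 2.7% higher in KO. With edgeR or limma-voom, *Hist1h1t* was the only member called. *Hist1h1t* was already known to rise when these genes were chosen, so its difference is a description. The other 8 members had 0 or 1 counts in every library, within the floor of 3 counts. These were *Hist1h2ao*, *Hist1h2ap*, *Hist1h2bq*, *Hist1h2br*, *Hist1h4m*, *Hist1h4n*, *Hist2h2aa1* and *Hist2h2aa2*, and 85.6% to 100% of the 50-base stretches of their transcripts also occurred in other genes. Such sharing was not particular to them, since among the tested members it ranged from 0% to 93.9%, the highest being *Hist1h3h* with a mean of 5506 normalized counts in WT. How reads that fit several copies were counted is not given in the sources used here, so levels of near-identical members are uncertain.

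*Hist1h1t* (chr13:23695814-23696725, plus strand, GRCm38) had WT levels of 177, 203 and 129 normalized counts and KO levels of 1183, 1667 and 1102. Every KO library was above every WT library, and the lowest KO value exceeded the highest WT value several fold. The means were 169.5 ± 37.6 (SD, n = 3) in WT and 1317 ± 306 (SD, n = 3) in KO, a ratio of 7.77 (log2 fold change 2.92, SE 0.18, DESeq2 adjusted p = 1.43e-53). Within replicate numbers 1, 2 and 3 the log2 difference was 2.74, 3.04 and 3.10. The raw counts behind these values were 310, 287 and 47 in WT and 2096, 2811 and 417 in KO. None of the 50-base stretches of the *Hist1h1t* transcript occurred in another gene. It was called under all 14 alternative settings, with log2 fold changes from 2.71 to 3.06.

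*Hist1h2aa* (chr13:23934462-23934851, plus strand) had WT levels of 568, 982 and 810.5 normalized counts and KO levels of 1132, 1584 and 1181. The KO libraries were all above the WT libraries, although WT replicate 2 lay close to KO replicate 1. The difference was smaller than that of *Hist1h1t* (log2 fold change 0.73, SE 0.19, DESeq2 adjusted p = 0.00261). *Hist1h2ba* (chr13:23933773-23934156, minus strand) had WT levels of 408, 552 and 512 normalized counts and KO levels of 655, 725 and 608. Again no KO library fell within the WT range (log2 fold change 0.45, SE 0.15, DESeq2 adjusted p = 0.0383). Within replicate numbers 1, 2 and 3 the log2 difference was 0.99, 0.69 and 0.54 for *Hist1h2aa* and 0.68, 0.39 and 0.25 for *Hist1h2ba*. Neither call was kept by edgeR (adjusted p = 0.0683 and 0.0769) or without WT replicate 1 (0.0728 and 0.375) or KO replicate 2 (0.112 and 0.353). *Hist1h2aa* was also lost without WT replicate 3 (0.214) and *Hist1h2ba* without KO replicate 1 (0.206). With both replicate 3 libraries left out, *Hist1h2ba* was called and *Hist1h2aa* was not (0.339). Of the *Hist1h2ba* transcript, 38.2% of the 50-base stretches occurred in other genes.

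**Figure D1:**
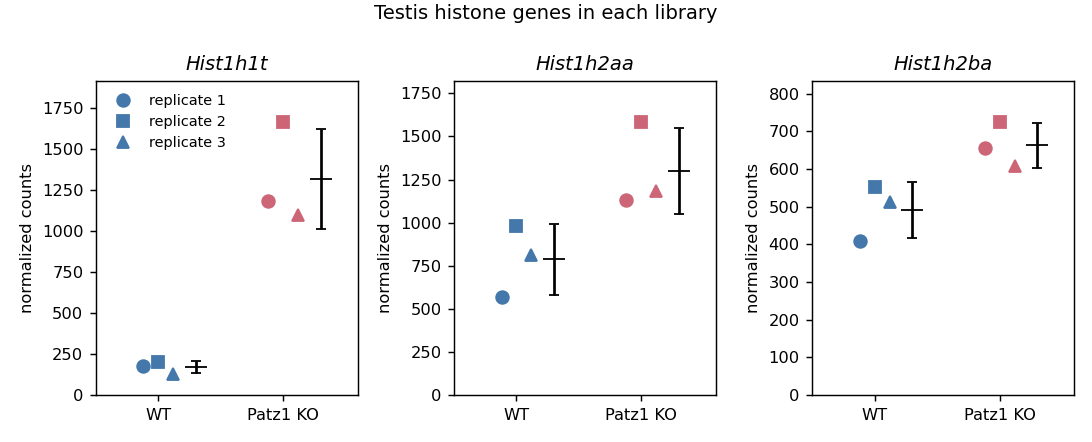
Normalized counts of the 3 testis histone genes in each WT and Patz1 KO library, with the mean and SD of the 3 libraries as black bars and a separate axis from 0 for each gene. All KO libraries lie above all WT libraries for each gene, with a ratio of means of 7.77 for Hist1h1t.

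Other genes of male germ cells were listed beside the testis histones. Of 16 male germ markers, 8 were at no more than 3 counts in every library, among them the protamines *Prm1* and *Prm2* and the transition proteins *Tnp1* and *Tnp2*. Of the 8 tested, 0 were called higher by DESeq2 and 3 were lower, *Dazl* (log2 fold change -0.67), *Tex14* (-0.69) and *Ldhc* (-1.35), beside 4.78% of all genes tested called lower. The count higher was 0 also at an unadjusted p under 0.05, with edgeR and with limma-voom. The summed level of the list was 2280 to 2755 normalized counts in WT and 1919 to 2291 in KO.

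Among the H1 genes, *Hist1h1t* was the lowest in both genotypes. Per kilobase of coding sequence, its mean level was 270.4 ± 59.9 (SD, n = 3) normalized counts in WT and 2101 ± 487 in KO. On the same scale *Hist1h1e*, the next lowest, was at 16172 ± 5476 in WT and 19139 ± 6430 in KO, and *Hist1h1a*, the highest, at 55558 ± 5497 and 61361 ± 5737. As a share of all H1 counts, *Hist1h1t* made up 0.163%, 0.162% and 0.144% in the WT libraries and 0.925%, 1.18% and 1.10% in KO. The 95% Wilson intervals, which cover counting error only, reached at most 0.191% in WT and began at no less than 0.886% in KO. The share averaged 0.156% ± 0.0106 (SD, n = 3) in WT and 1.07% ± 0.129 (SD, n = 3) in KO.

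The other 5 H1 genes, the somatic linker histones, had log2 fold changes of 0.12 to 0.24, and none was called without the replicate block. The replicate number was also taken as a block, which assumes that libraries with the same number are pairs. With this block, *Hist1h1b* (DESeq2 adjusted p = 4.65e-05), *Hist1h1e* (0.000409) and *Hist1h1a* (0.0231) were called higher, and *Hist1h1c* (0.107) and *Hist1h1d* (0.12) were not. The p-values that follow are those without the block. *Hist1h1b* had WT levels of 22820, 25259 and 22096 normalized counts and KO levels of 27080, 28662 and 27418 (log2 fold change 0.24, SE 0.09, DESeq2 adjusted p = 0.0787). It was the only member besides the testis histones whose libraries did not overlap between genotypes. Members with non-overlapping libraries, all higher in KO, were 4 of 60 (6.67%), beside 11.8% of all genes tested. *Hist1h1a* had WT levels of 34730, 39336 and 32438 normalized counts and KO levels of 38123, 43295 and 36210 (log2 fold change 0.14, SE 0.11, DESeq2 adjusted p = 0.59). *Hist1h1e* had WT levels of 11144, 13934 and 6796 normalized counts and KO levels of 14150, 15784 and 7788 (log2 fold change 0.24, SE 0.37, DESeq2 adjusted p = 0.859). In *Hist1h1e*, as in *Hist1h1c* and *Hist1h1d*, replicate 3 was the lowest library of both genotypes.

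**Figure D2:**
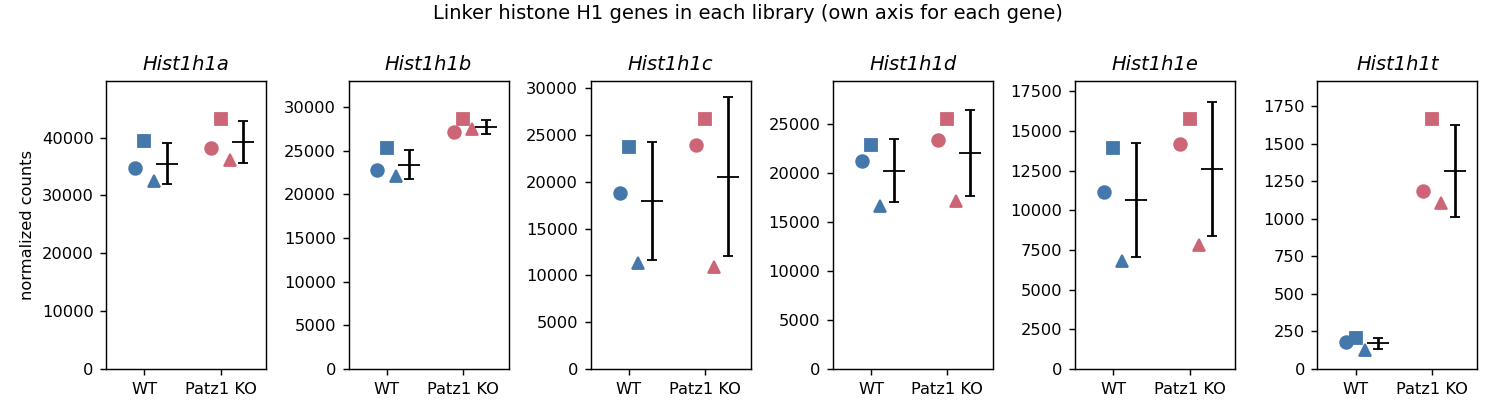
Normalized counts of the 6 linker histone genes in each library, with mean and SD as black bars and an axis from 0 for each gene. The KO libraries lie above all WT libraries for Hist1h1t (ratio of means 7.77) and, by far less, for Hist1h1b, and Hist1h1c and Hist1h1e vary most between libraries of one genotype.

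The neighbours of *Hist1h1t* were the 5 nearest genes of the files on each side by gene start, of which 9 were members and 1 was *Hfe*, an iron regulatory gene. None of the 10 was called without the replicate block. The closest, *Hist1h4c*, whose start coordinate lies 1.82 kb away, had WT levels of 19687, 29809 and 14498 normalized counts and KO levels of 27687, 33844 and 10846 (log2 fold change 0.18, SE 0.47, DESeq2 adjusted p = 0.923). *Hist1h2bc*, 11.6 kb to the other side, had WT levels of 4887, 8683 and 3436 normalized counts and KO levels of 9221, 10383 and 2830 (log2 fold change 0.40, SE 0.65, DESeq2 adjusted p = 0.867). *Hfe*, 6.22 kb away, was low, with WT levels of 15.4, 15.5 and 27.4 normalized counts and KO levels of 14.1, 28.5 and 31.7 (log2 fold change 0.39, SE 0.50, DESeq2 adjusted p = 0.816). *Hist1h1c*, 43.0 kb away, had WT levels of 18801, 23736 and 11306 normalized counts and KO levels of 23969, 26743 and 10890 (log2 fold change 0.19, SE 0.42, DESeq2 adjusted p = 0.903). In each of these the libraries of the genotypes overlapped. The remaining neighbours, *Hist1h4d*, *Hist1h2be*, *Hist1h1e*, *Hist1h2ac*, *Hist1h3c* and *Hist1h2bb*, had log2 fold changes between 0.12 and 0.44 with SEs between 0.35 and 0.77.

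**Figure D3:**
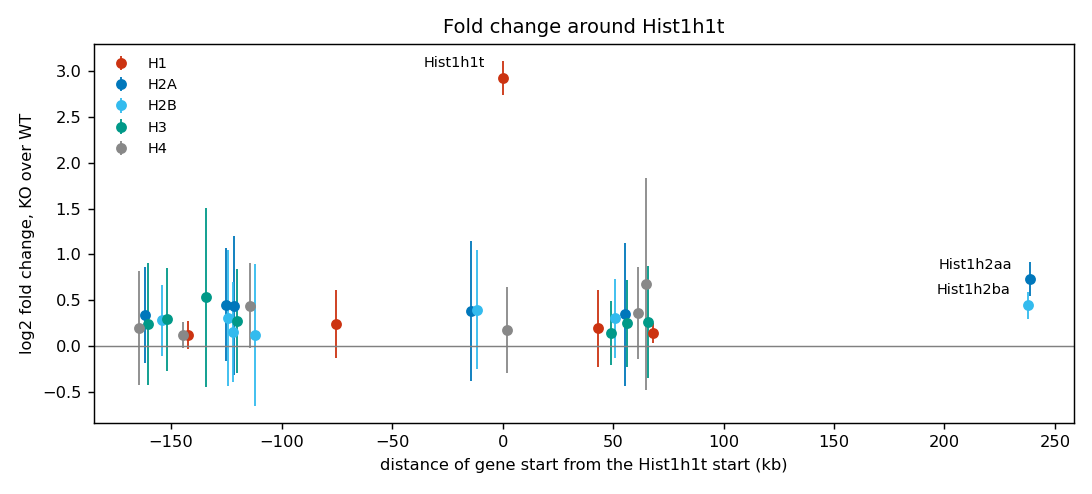
Log2 fold change (KO over WT, bars are the SE from DESeq2) of the tested members in the part of the Hist1 cluster that holds Hist1h1t, and of Hist1h2ba and Hist1h2aa beyond it, against the distance of each gene start from that of Hist1h1t in kb. Hist1h1t stands at 2.92, and the closest member, Hist1h4c, at 0.18.

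The *Hist1* members fell into 4 blocks separated by more than 100 kb. Block 3 (chr13:23531050-23764406), with *Hist1h1t*, had 29 tested members with a median log2 fold change of 0.28. Block 1 (chr13:21715763-21837530) had 12 with a median of 0.29, and block 2 (chr13:22035164-22043676) had 5 with a median of 0.27. Block 4, *Hist1h2ba* and *Hist1h2aa*, had a median of 0.59. Over all 60 members the median was 0.28, and 56 lay above 0, beside a median of 0.01 and 7898 of 15309 for all genes tested. These small positive values came with a median SE of 0.52, against 0.16 over all genes, and members varied widely between libraries of one genotype.

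Summed over the 68 members, the level was 447101, 701125 and 352890 normalized counts in WT and 675985, 757686 and 336973 in KO. Replicate 3 was the lowest in each genotype, and WT replicate 1 lay well below WT replicate 2. The means were 500372 ± 180126 (SD, n = 3) in WT and 590215 ± 223086 (SD, n = 3) in KO, a difference smaller than the SD. As a share of all counts, the members made up 1.69%, 2.64% and 1.17% in WT and 2.51%, 2.73% and 1.12% in KO. Of the 60 members tested, 59 were lower in WT replicate 1 than in WT replicate 2, beside 48.0% of all genes. KO replicate 3 was the lowest KO library for 58 members and WT replicate 3 the lowest WT library for 48, beside 39.9% and 40.9% of all genes. The part of the *Rn45s* share and depth of replicate 3 in these levels was not tested.

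The classes differed in how far they varied. The summed H1 level was 108883, 125254 and 89410 normalized counts in WT and 127892, 141683 and 100566 in KO. The H2A level was 26470, 50920 and 16702 in WT and 48211, 55854 and 15639 in KO. Between the highest and lowest KO library, H2A thus moved severalfold and H1 far less. The H2B level was 147166, 210514 and 105491 in WT and 198409, 218572 and 99906 in KO. The H3 level was 60760, 93632 and 36600 in WT and 89726, 103244 and 34896 in KO. The H4 level was 103822, 220806 and 104686 in WT and 211747, 238333 and 85966 in KO. In every class the ranges of WT and KO overlapped, and the ratio of means was 1.14 for H1, 1.27 for H2A, 1.12 for H2B, 1.19 for H3 and 1.25 for H4.

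**Figure D4:**
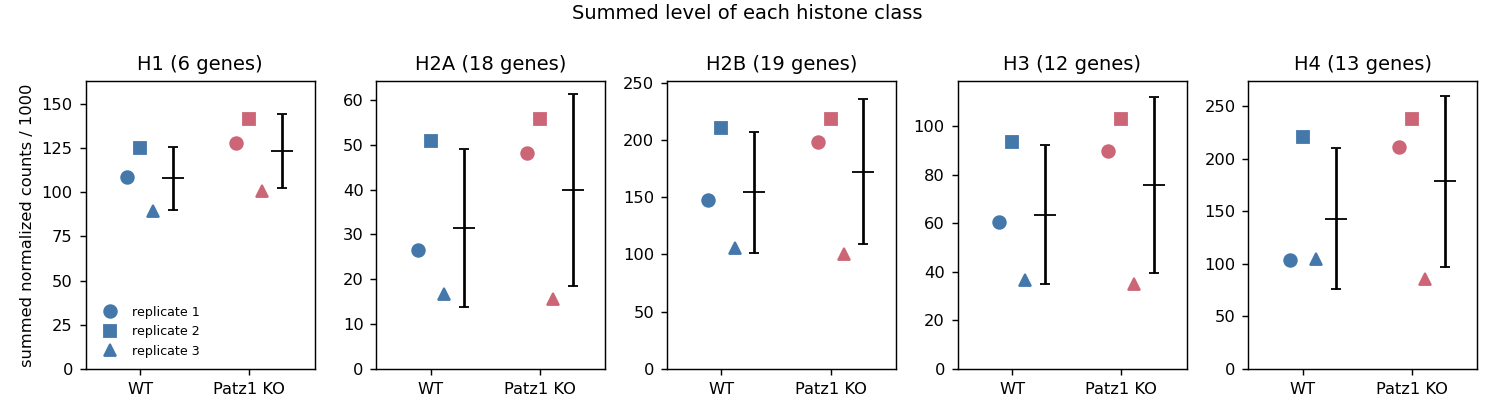
Summed normalized counts (axis label gives the scale) of each histone class in each WT and Patz1 KO library, with the mean and SD as black bars and an axis from 0 for each class. Replicate 3 is the lowest library of every class in KO, and WT and KO ranges overlap in every class.

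Compared within replicate numbers, the difference between genotypes depended on the number. In replicate 1, KO was above WT for 57 of 60 members with a median log2 difference of 0.67. In replicate 2 it was above for 55 with a median of 0.14. In replicate 3 it was above for 14, and the median was -0.13. The medians over all genes tested were 0.00, 0.01 and 0.01. By class, the replicate 1 medians were 0.30 for H1, 0.99 for H2A, 0.68 for H2B, 0.50 for H3 and 0.66 for H4. In replicate 3 they were 0.18, -0.16, -0.05, -0.13 and -0.33, so H1 was the class with a positive median in all 3.

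**Figure D5:**
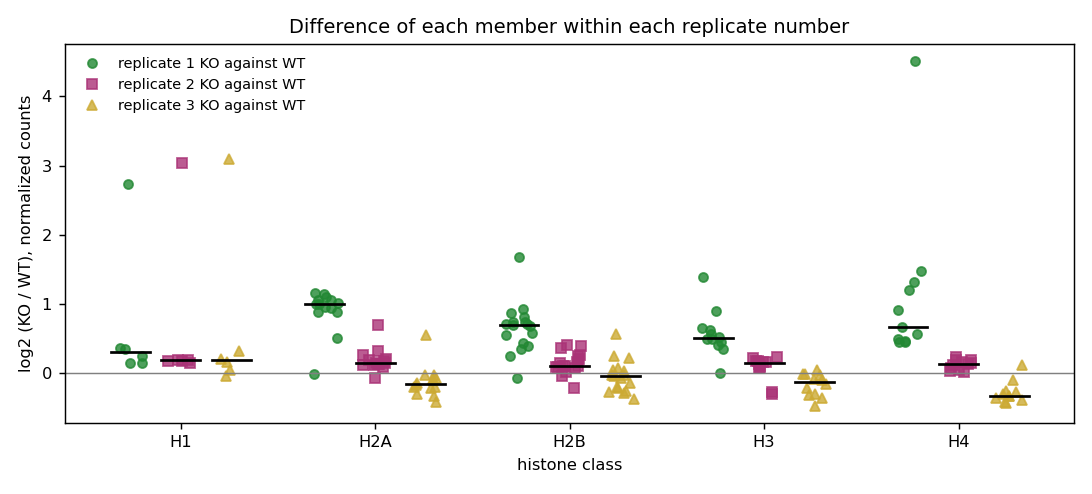
Log2 of KO over WT normalized counts within each replicate number for the 60 tested members by histone class, with the median of each set as a black line. The replicate 1 medians of 0.30 to 0.99 are above those of replicate 2, and in replicate 3 the H2A, H2B, H3 and H4 medians lie below 0.

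Libraries with the same replicate number deviated together over all genes, but the labels do not say that they are pairs. With that number as a block, 10 of 60 members (16.7%) were called, all higher in KO, beside 6.68% of 14567 tested genes called higher. The 3 testis histones were among them. The other 7 had small differences: *Hist1h1b* 0.25 (SE 0.05, adjusted p = 4.65e-05), *Hist1h1e* 0.24 (SE 0.06, adjusted p = 0.000409) and *Hist1h1a* 0.14 (SE 0.05, adjusted p = 0.0231) of the H1 class with DESeq2. For *Hist1h3b* the blocked log2 fold change was 0.23 (SE 0.08, adjusted p = 0.0204), and for *Hist1h3i* 0.23 (SE 0.08, adjusted p = 0.0415). For the H4 gene *Hist2h4* it was 0.26 (SE 0.07, adjusted p = 0.00589) and for the H2B gene *Hist3h2ba* 0.43 (SE 0.12, adjusted p = 0.00358). By replicate number 1, 2 and 3, the log2 difference was 0.49, 0.15 and 0.03 for *Hist1h3b* and 0.49, 0.16 and -0.01 for *Hist1h3i*. It was 0.45, 0.18 and 0.11 for *Hist2h4* and 0.70, 0.40 and 0.04 for *Hist3h2ba*. Under the block *Hist1h1t* was at 2.93 (SE 0.12, adjusted p = 1.63e-124), *Hist1h2aa* at 0.76 (SE 0.10, adjusted p = 6.35e-12) and *Hist1h2ba* at 0.46 (SE 0.12, adjusted p = 0.00176).

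The core histone genes at the highest level per kilobase of exon in each class gave no call. For H2A this was *Hist1h2ak*, with WT levels of 3791, 8269 and 1988 normalized counts and KO levels of 7873, 9120 and 1718 (log2 fold change 0.41, SE 0.85, DESeq2 adjusted p = 0.898). For H3 it was *Hist1h3f*, with WT levels of 18597, 31166 and 10670 normalized counts and KO levels of 28588, 34875 and 10555 (log2 fold change 0.29, SE 0.56, DESeq2 adjusted p = 0.89). For H4 it was *Hist1h4h*, with WT levels of 18541, 25971 and 11114 normalized counts and KO levels of 29348, 26120 and 8227 (log2 fold change 0.20, SE 0.62, DESeq2 adjusted p = 0.938). In these 3 genes replicate 3 was the lowest library of each genotype. Per kilobase of coding sequence *Hist1h4d* was the highest H4 gene, since annotated exon lengths differ widely. The widest spread within a genotype as a ratio of the highest to the lowest library, 24.5 in WT, was that of *Hist1h4a*, with WT levels of 1203, 29508 and 10963 normalized counts and KO levels of 27428, 30898 and 8335 (log2 fold change 0.68, SE 1.16, DESeq2 adjusted p = 0.874). Its raw count was 2104 in WT replicate 1 and 41787 in WT replicate 2.

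Outside the *Hist1* cluster, the highest H2B gene was *Hist2h2bb*, with WT levels of 55121, 55826 and 45625 normalized counts and KO levels of 52157, 58385 and 44632 (log2 fold change -0.01, SE 0.12, DESeq2 adjusted p = 0.982). Unlike most members it varied little between libraries, and its genotypes overlapped. Its exon overlaps those of the annotated genes *Gm42743* on the same strand and *Gm20628* on the other. How reads in such overlaps were counted is not given in the sources used here. *Hist2h4* had WT levels of 3353, 4471 and 2692 normalized counts and KO levels of 4565, 5083 and 2910 (log2 fold change 0.26, SE 0.30, DESeq2 adjusted p = 0.79), and it was called with the block. *Hist2h2ac* (H2A) had WT levels of 3227, 6497 and 1687 normalized counts and KO levels of 6254, 7299 and 1601 (log2 fold change 0.41, SE 0.79, DESeq2 adjusted p = 0.891). Its replicate 3 libraries were the lowest of both genotypes. *Hist2h3b* (H3) had WT levels of 1516, 2710 and 734 normalized counts and KO levels of 2807, 3181 and 589 (log2 fold change 0.41, SE 0.82, DESeq2 adjusted p = 0.896).

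The other *Hist2* members were low. *Hist2h2ab* had 275, 439.9 and 142 against 389, 502 and 106 normalized counts in WT and KO (log2 fold change 0.22, SE 0.74, DESeq2 adjusted p = 0.941). *Hist2h2be* had 73.8, 73.4 and 93.1 against 93.7, 94.3 and 71.4 (log2 fold change 0.18, SE 0.25, DESeq2 adjusted p = 0.835). The H3 genes *Hist2h3c1*, with 91.5, 131 and 95.8 against 116, 106 and 74 (log2 fold change -0.08, SE 0.25, DESeq2 adjusted p = 0.94), and *Hist2h3c2*, with 111, 146 and 109.5 against 111, 120.4 and 87.2 (log2 fold change -0.19, SE 0.23, DESeq2 adjusted p = 0.804), did not pass the test either. In all of these the libraries of the genotypes overlapped.

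The *Hist3* genes lie on chromosome 11, where the median log2 fold change of the 1260 genes tested was -0.27. Of these genes 1091 lay below 0, and 268 were among the 1146 called over all genes. The shares over all genes given in this report include them. *Hist3h2a* had WT levels of 4116, 5428 and 3740 normalized counts and KO levels of 4040, 5162 and 3642 (log2 fold change -0.05, SE 0.15, DESeq2 adjusted p = 0.938). *Hist3h2ba* had WT levels of 646, 971 and 457 normalized counts and KO levels of 1050, 1285 and 470.4 (log2 fold change 0.44, SE 0.51, DESeq2 adjusted p = 0.786). *Hist3h2bb-ps* had 56, 94.6 and 41.1 against 97.6, 100.2 and 39.6 in WT and KO (log2 fold change 0.32, SE 0.36, DESeq2 adjusted p = 0.774). *Hist4h4* had WT levels of 14388, 24668 and 11106 normalized counts and KO levels of 19667, 24997 and 8948 (log2 fold change 0.10, SE 0.47, DESeq2 adjusted p = 0.958). None of these was called without the block, and in each the genotypes overlapped.

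Genes that make or handle histone mRNAs and proteins were counted beside the share over all genes, which was 7.49% called in either direction. Of 19 genes of histone mRNA synthesis and processing, 1 was called. This was *Cstf2*, a subunit of the cleavage complex, with WT levels of 3244, 3567 and 3924 normalized counts and KO levels of 4754, 4919 and 4992 (log2 fold change 0.45, SE 0.10, DESeq2 adjusted p = 0.000313). *Slbp*, which binds the stem-loop, had WT levels of 4388, 4279 and 4252 normalized counts and KO levels of 5069, 5229 and 4537 (log2 fold change 0.20, SE 0.09, DESeq2 adjusted p = 0.222), with an adjusted p of 0.0124 under the block. *Npat*, the activator of histone genes in S phase, had a log2 fold change of 0.10 (DESeq2 adjusted p = 0.741), and *Lsm10*, of the U7 snRNP, of 0.15 (adjusted p = 0.726). *Lsm11*, also of the U7 snRNP and chosen after its values were seen, had WT levels of 416, 398 and 334 normalized counts and KO levels of 285, 305 and 320. Every KO library was below every WT library (log2 fold change -0.36, SE 0.15, DESeq2 adjusted p = 0.131). Among the tools, limma-voom alone called it (adjusted p = 0.0469), and edgeR did not (adjusted p = 0.098). DESeq2 called it without WT replicate 3 (adjusted p = 0.041) and without both replicate 3 libraries (adjusted p = 0.0357). The median over the 19 genes was 0.05. With the block, *Lsm11* was not called (adjusted p = 0.0761), and 2 of the 19 genes were called higher and 1 lower, the last being *Ccne1* (adjusted p = 0.0177), beside 6.68% and 7.95% of all genes and 14.6% in either direction.

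Of 16 histone chaperone genes, 1 was called, *Atrx*, a chromatin remodeller that acts with H3.3, with WT levels of 10419, 9231 and 12390 normalized counts and KO levels of 14793, 12130 and 15399 (log2 fold change 0.40, SE 0.13, DESeq2 adjusted p = 0.0295). With the block 5 of the 16 were higher and 1 lower, beside the same shares of 6.68% and 7.95%. Of 12 tested genes for polyadenylated histone variants 1 was called, *H3f3b*, which encodes H3.3, with WT levels of 26952, 26070 and 27176 normalized counts and KO levels of 20809, 22079 and 23657 (log2 fold change -0.27, SE 0.09, DESeq2 adjusted p = 0.035), and with the block 2 were lower. The *Atrx* and *H3f3b* calls were not kept by edgeR (adjusted p = 0.112 and 0.0922) or by limma-voom (adjusted p = 0.0815 and 0.0504). Of 26 S phase genes, 0 were called by DESeq2, with a median log2 fold change of -0.01. At an unadjusted p under 0.05, 1 S phase gene was higher and 1 lower, edgeR and limma-voom called 0, and with the block 2 were higher and 2 lower. With both replicate 3 libraries left out, 10 genes of these 4 lists were called rather than 3, beside 8.77% of all 15193 genes tested in that setting (1332) and 7.49% with all libraries (1146). *Slbp* stands in the mRNA and the S phase lists and is counted once there.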

How the data were processed

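The authors deposited raw read counts per gene symbol, one file per library. The submitters' processing notes name TopHat2 (2.1.1), Bowtie2 (2.3.1.0), featureCounts (1.6.2), DESeq2 and the mm10 build; the annotation, the use of strand and the handling of reads that map to several genes are not given in the sources used here. The Wald test of DESeq2 (1.42.0, R 4.3.3; threshold of 0.05, independent filtering at 0.1) was two-sided and fitted on all 6 libraries with Benjamini-Hochberg adjustment over all genes. Normalized counts are counts divided by DESeq2 size factors, and differences are KO over WT. The alternatives were edgeR (4.0.16), limma-voom (limma 3.58.1), TMM size factors, size factors without the members, a filter of 10 counts in 3 libraries, no independent filtering, a replicate block, each library left out in turn, and both replicate 3 libraries left out. Deviations from the group means of libraries with the same number correlated across 11524 genes (r = 0.47, 0.62 and 0.68). The numbers were taken as pairs. Deviations within a genotype cancel out, so a shared difference of replicate 3 alone would also raise the correlations of replicates 1 and 2. The pairing is thus assumed, since the labels give the numbers alone. The fits were tested on simulated data. Genes named with values (for some neighbours and list genes a fold change or a range alone) were those called, the testis histones, the highest of each class, members outside *Hist1* and the 5 nearest genes on each side of *Hist1h1t*, with the called genes of the lists, *Slbp*, *Npat* and *Lsm10*; *Hist1h1b*, *Hist1h1e*, *Hist1h3b*, *Hist1h3i*, *Hist1h4a* and *Lsm11* were added after their values were seen. The members and lists were chosen with earlier results of these data known.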

Additional observations from a re-analysis of the deposited data

How the results depend on the processing

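Leaving out single libraries gave 1 to 4 histone genes called (3 in all libraries), 583 to 1341 of all genes (1146) and 1 to 8 pathway genes (3). The count of histone genes was 1 with edgeR, 1 with limma-voom and 10 with the replicate block. The replicate block gave 2131 calls over all genes and 14 pathway genes (*Slbp*, in 2 lists, counted once), edgeR gave 1 pathway gene, and leaving out both replicate 3 libraries gave 10. Without WT replicate 2 *Hist1h2bn* was called (log2 fold change 1.28), and without both replicate 3 libraries *Hist1h2bj* (0.31) and *Slbp* (0.25). *Hist1h1t* kept its call under every alternative, with 2.71 to 3.06 as libraries were left out. Direction turned only when a single library was left out, and only in members that were not called in all libraries: 22 of 60 turned without WT replicate 3, 17 without KO replicate 2 and 2 or 3 without each of the others. Of the members given with values that turned, the range was -0.053 to 0.500 for *Hist1h1c*, -0.233 to 0.715 for *Hist1h2be*, -0.0096 to 0.390 for *Hist1h3c*, -0.040 to 0.754 for *Hist1h3f*, -0.060 to 0.639 for *Hist1h3i*, -0.15 to 0.53 for *Hist1h4c*, -0.11 to 0.58 for *Hist1h4h*, -0.20 to 0.67 for *Hist2h2ab*, -0.108 to 0.085 for *Hist2h2bb*, -0.21 to 0.12 for *Hist2h3c1*, -0.21 to 0.13 for *Hist3h2a* and -0.22 to 0.49 for *Hist4h4*. Others kept their direction but moved widely. The range was 0.13 to 1.87 for *Hist1h4a*, 0.036 to 1.11 for *Hist1h2ak*, 0.048 to 1.04 for *Hist2h2ac* and 0.041 to 0.963 for *Hist2h3b*. It was 0.040 to 0.944 for *Hist1h2ac*, 0.090 to 0.846 for *Hist1h2bc*, 0.15 to 0.89 for *Hist1h4d* and 0.14 to 0.76 for *Hist3h2ba*. It was 0.023 to 0.635 for *Hist1h2bb*, 0.0049 to 0.553 for *Hist1h3b*, 0.0019 to 0.496 for *Hist1h1e* and 0.094 to 0.471 for *Hist2h4*. It was 0.14 to 0.72 for *Hist3h2bb-ps*, 0.067 to 0.224 for *Hist1h1a* and 6.9e-05 to 0.277 for *Hist1h1d*. It was 0.11 to 0.35 for *Hist2h2be*, 0.205 to 0.711 for *Hfe* and -0.285 to -0.027 for *Hist2h3c2*. The causes were not tested. Size factors from TMM or without the members, the count filter and no independent filtering changed no member's call or direction. Replicate 3 was shallow (11040756 and 11420268 counts), and with both of its libraries left out the count of histone genes called was 3, as with all libraries, but *Hist1h2bj* took the place of *Hist1h2aa*. The median SE of 0.52 over the members limits what small differences could be seen.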
